A study of Homo sapiens with 8 samples.

Results

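A set of 9 histone genes was described here in the NB4 series: H1-2, H2AC6, H2BC5, H2BC12, H2BC21, H2AJ, H2AX, H2AZ1 and H3-3B. The 9 genes were given by name as histone genes whose transcripts carry a poly(A) tail, and they make up 9 of the 22627 gene symbols in the tables. NB4, established from acute promyelocytic leukaemia with the PML-RARA fusion, matures along the granulocyte lineage under all-trans retinoic acid (ATRA). RNA was sequenced from cells with a lentiviral hairpin directed at TFEB (shTFEB), which encodes a regulator of lysosome genes, under 1 µM ATRA or ethanol vehicle for 72 h. The same treatments were given to cells with a scrambled hairpin (shScr), so every group carries a lentiviral hairpin; the titles of the shScr ATRA samples also carry the word vehicle, and their treatment label was followed. The labels give 2 samples in each of the 4 groups, but the tables hold a single value per transcript model and group, in fragments normalised to model length and to mapped fragments (FPKM). Sample-to-sample spread is thus unknown, and differences are given as sizes, without a replicate check or a p-value.

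Most histone genes are switched on in S phase, when new DNA is packaged, and are called replication-dependent. Their messenger RNAs normally end in a short stem-loop that is bound by the protein SLBP, in place of a poly(A) tail, and they are lost when replication stops. Replacement histones such as H2A.Z and H3.3 are made throughout the cell cycle from polyadenylated, usually spliced messages. A few replication-dependent genes also have a second, polyadenylated form of their message, which has been described in cells that leave the cell cycle and differentiate. Of the 9 genes, H1-2 (linker histone H1.2), H2AC6 (an H2A gene) and H2BC5, H2BC12 and H2BC21 (H2B genes) belong to the replication-dependent clusters. H2AJ, H2AX, H2AZ1 and H3-3B encode replacement or variant histones.

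The 3′ ends of the transcripts show how these genes differ. Each model was paired with its GENCODE release 29 transcript on GRCh38, and the histone stem-loop was searched on the transcript strand by a consensus that leaves some inner bases of the stem and a base of the loop free. Of 83129 protein-coding transcripts 38 hold a match. Among the 9 genes, 4 have a paired transcript with it, printed in full below because its place in the transcript separates the forms of the message:
H2AC6 stem-loop: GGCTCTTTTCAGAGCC
H2BC21 stem-loop: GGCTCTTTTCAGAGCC
H2BC5 stem-loop: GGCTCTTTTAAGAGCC
H2AX stem-loop: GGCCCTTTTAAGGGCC
In the H2BC5 transcript of 496 bases that is paired with its short model, 39 bases follow the stem-loop. In H2AC6, H2BC21 and H2AX the transcript runs on for 1114, 1729 and 1044 bases after it. The paired transcript of the long H2BC5 model, with 789 bases, has no match, and neither have those of H2AZ1, H3-3B and H2AJ. The polyadenylation hexamer AATAAA lies within the last 50 bases of a paired transcript of 6 genes, H2AC6, H2BC5, H2BC21, H2AJ, H2AZ1 and H3-3B. The transcripts paired with H1-2 and H2BC12 hold the coding region alone, so their ends could not be read from this annotation. The hg19 model of H2AC6 in the tables spans 546 bases, against 1654 bases in the paired transcript, so this model does not cover the extension after the stem-loop.

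Next, promoters are printed for the 4 genes that passed the 2-fold mark in shScr cells, picked by that result, and for H1-2, which did not. They are the 150 bases upstream of the RefSeq start on GRCh38.p14. The octamer ATTTGCAT, the CCAAT box and the TATA box (TATAAA) are in capitals on either strand, and each promoter is written along the strand of its gene.
H2AC6, chr6:26124022-26124171, plus strand: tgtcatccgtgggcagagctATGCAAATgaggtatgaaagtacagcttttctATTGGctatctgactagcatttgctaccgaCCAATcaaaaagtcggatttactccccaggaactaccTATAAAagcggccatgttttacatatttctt
H2BC5, chr6:26157971-26158120, plus strand: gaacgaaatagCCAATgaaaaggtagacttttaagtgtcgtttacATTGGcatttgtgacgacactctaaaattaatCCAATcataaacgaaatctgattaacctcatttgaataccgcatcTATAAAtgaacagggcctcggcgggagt
H2BC12, chr6:27146859-27147008, minus strand: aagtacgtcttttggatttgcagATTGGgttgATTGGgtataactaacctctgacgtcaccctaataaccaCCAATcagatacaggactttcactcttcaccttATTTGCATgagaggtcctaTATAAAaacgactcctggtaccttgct
H2BC21, chr1:149886683-149886832, minus strand: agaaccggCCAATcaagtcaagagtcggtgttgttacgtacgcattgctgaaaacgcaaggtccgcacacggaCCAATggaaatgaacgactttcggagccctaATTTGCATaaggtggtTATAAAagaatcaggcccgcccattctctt
H1-2, chr6:26056471-26056620, minus strand: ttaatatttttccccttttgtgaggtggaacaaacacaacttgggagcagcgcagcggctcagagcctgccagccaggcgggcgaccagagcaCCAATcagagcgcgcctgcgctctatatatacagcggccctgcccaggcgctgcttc
In H2BC12 and H2BC21 the octamer begins 46 bases upstream of the start and on the plus strand of the gene. In the wider window of 250 bases, CCAAT was found in all 9 genes and in 32% of 35116 RefSeq promoters. TATAAA was found in 7 of the 9 genes, without H1-2 and H2AJ, and in 10.7% of promoters. ATTTGCAT was found in H2AC6, H2BC12, H2BC21 and H3-3B, 4 of the 9, and in 1.63% of promoters. The core E-box CACGTG, contained in the element that TFEB binds, was found in 0 of the 9 and in 6.34% of promoters, and the nuclear receptor hexamer AGGTCA in 0 of the 9 and in 12.1%. These matches describe letters in a window and not binding. Shares among other histone promoters were not computed, so whether the matches are particular to the 9 genes was not tested.

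TFEB itself, the targeted gene, stood at 8.44 FPKM in shTFEB ATRA, 19.4 in shScr ATRA, 1.35 in the group labelled shTFEB vehicle and 1.20 in shScr vehicle. The hairpin line thus held 0.436 times the shScr level under ATRA but 1.13 times under vehicle, where the deposited bounds overlap, so that group is called by its label only, also where it is the base of the ATRA ratios in shTFEB cells. The depth relative to shScr vehicle, read from the spacing of the lowest values, was 0.911 in shTFEB ATRA, 1.05 in shScr ATRA and 1.17 in the group labelled shTFEB vehicle; the absolute number of fragments is not known. The 6 promyelocyte markers summed to 707 FPKM in shTFEB ATRA, 824 in shScr ATRA, 2820 in the group labelled shTFEB vehicle and 4333 in shScr vehicle, with MPO the highest. The 9 markers of granulocytic maturation summed to 1458 and 3078 FPKM under ATRA (shTFEB, shScr) and to 77.7 and 84.5 FPKM under vehicle. The 8 markers of lymphoid cells summed to 22.9 FPKM in shTFEB ATRA, 21.7 in shScr ATRA, 7.87 in the group labelled shTFEB vehicle and 8.31 in shScr vehicle, with MS4A1 at 0 in all groups. Of these, the B cell gene CD79A rose in both lines (19.7, 18.5, 2.09 and 2.41 FPKM in that group order) and the T cell gene CD3D fell in both (0.368, 0.514, 2.71 and 3.76 FPKM). The erythroid and platelet markers summed to 2.86, 0.566, 0.788 and 0.188 FPKM in that order, with HBB, HBA1, PF4 and GP9 among those at 0, and their platelet gene ITGA2B rose in shTFEB cells (2.75 FPKM under ATRA and 0.770 under vehicle; 0.521 and 0.177 in shScr cells). The non-blood markers summed to between 29.8 and 36.3 FPKM, with COL1A2 at 0 and KRT18 the highest, and KRT8, a keratin gene, held 4.71 FPKM in shTFEB ATRA and 3.32 in shScr ATRA and was listed at 0 in both vehicle groups. Their part in the histone values was not tested. In bulk RNA, fewer cells that express a gene and less RNA per cell cannot be told apart.

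The 11052 genes that averaged 1 FPKM or more across groups were compared, as log2 ratios after 1 FPKM was added to both values. "Rose" and "fell" stand for ratios of 1 or more in size, a 2-fold mark with no test behind it. Of the 9 histone genes 8 passed the filter and H2AJ did not. H2BC21, at 0.289 FPKM in the group labelled shTFEB vehicle and 0.279 in shScr vehicle, passed only through the ATRA groups. H2AC6, at 1.02 and 0.864 FPKM in the same groups, averaged just under the limit in vehicle and also passed only through the ATRA groups. The counts of H2BC21 and H2AC6 as rising are thus partly set by the filter. Under ATRA in shTFEB cells 3 of the 8 rose (H2AC6, H2BC5 and H2BC21), against 11.5% of all genes, and 0 fell, against 10.5%. In shScr cells 4 of the 8 rose (H2AC6, H2BC5, H2BC12 and H2BC21), against 12.5% of all genes, and 0 fell, against 15.2%. Median-of-ratios rescaling moved the median of all genes up by 0.13 in shTFEB and 0.15 in shScr cells, and the share of higher among all marked genes in shScr cells was 56.2% after it, against 45.2% as deposited. The median log2 ratio of the 8 genes was 0.92 in shTFEB cells and 0.49 in shScr cells, beside −0.13 and −0.15 for all genes. The histone genes named as rising belong to the replication-dependent clusters, and the 3 replacement genes that were compared have ratios below 0 in both lines, under the deposited scale and under both rescalings.

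**Figure D1:**
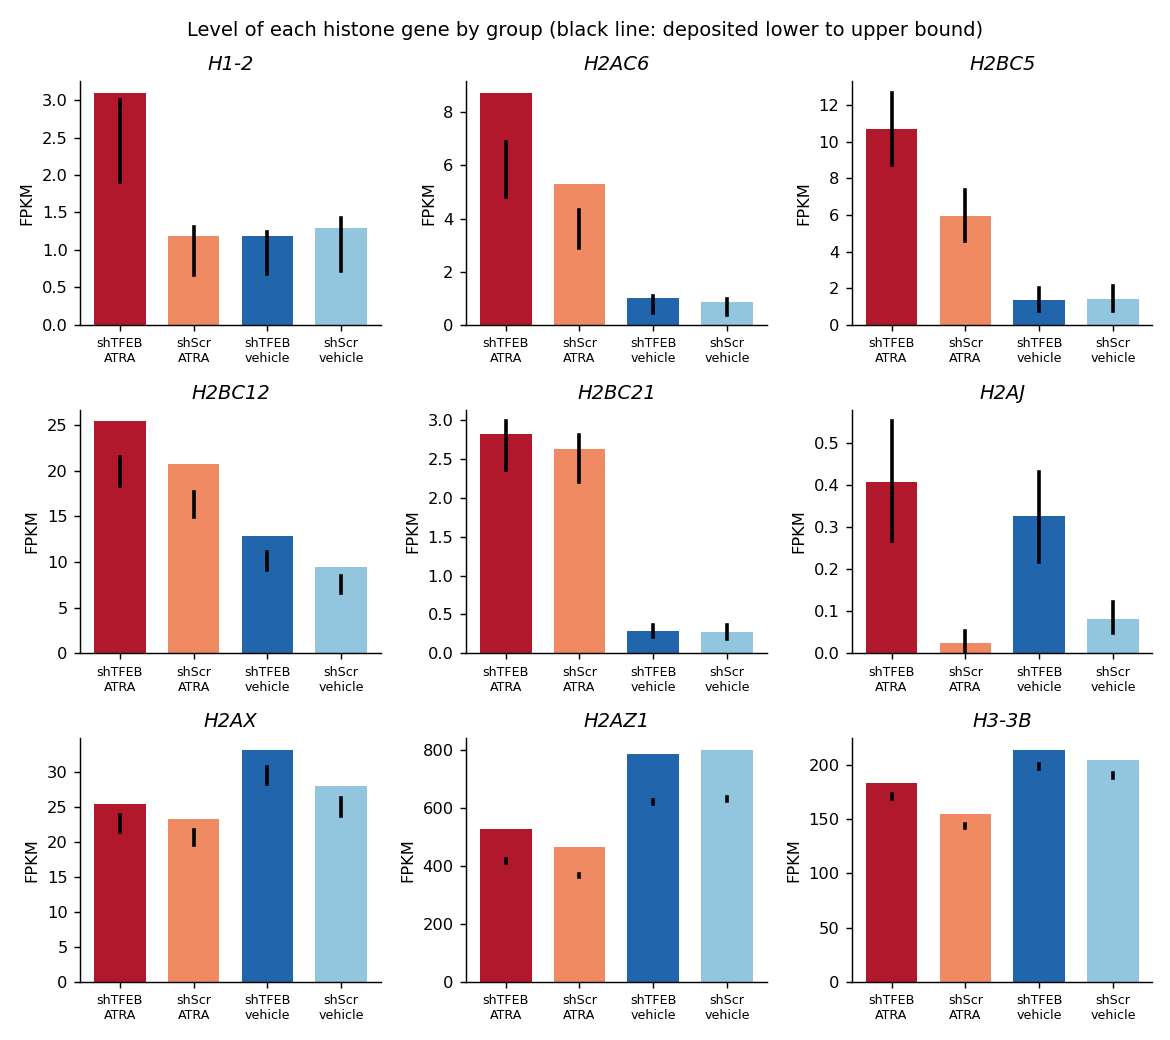
FPKM of each of the 9 histone genes (bars) in the 4 groups, 1 value per group; black lines run from the lower to the upper bound as deposited and often lie below the bar top. H2AC6, H2BC5, H2BC12 and H2BC21 stand higher in both ATRA groups, and H2AZ1 and H3-3B stand lower.

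H2BC12 was the most abundant of the replication-dependent genes described, with a model on hg19 chr6:27106072-27114637 whose interval also contains the H4C9 gene. It encodes a core H2B protein. H2BC12 stood at 25.4 FPKM in shTFEB ATRA, 20.7 in shScr ATRA, 12.8 in the group labelled shTFEB vehicle and 9.48 in shScr vehicle. Both ATRA groups lie above both vehicle groups, and the bounds (18.3 to 21.5, 14.9 to 17.6, 9.12 to 11.1 and 6.63 to 8.41) do not overlap between any compared pair. The gene rose in shScr cells (log2 ratio 1.05, 2.18-fold) and stayed just under the mark in shTFEB cells (0.94, 1.99-fold). After median-of-ratios rescaling the value in shTFEB cells was 1.07. H4C9, inside the interval, stayed between 0.580 and 0.724 FPKM. H2BC12 gave 50.1% of the summed FPKM of the 5 replication-dependent genes in shTFEB ATRA, 57.9% in shScr ATRA, 77.0% in the group labelled shTFEB vehicle and 71.1% in shScr vehicle, a lower share in both ATRA groups.

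H2AC6 (chr6:26124373-26124918), which encodes a core H2A protein, stood at 8.74 FPKM in shTFEB ATRA, 5.28 in shScr ATRA, 1.02 in the group labelled shTFEB vehicle and 0.864 in shScr vehicle. The vehicle groups lie together and both ATRA groups stand apart from them and from each other. The gene rose in both lines, with log2 ratios of 2.27 in shTFEB cells (8.53-fold) and 1.75 in shScr cells (6.11-fold). Only 4.10% of all compared genes had a larger ratio in shTFEB cells, and 6.61% in shScr cells. Since H2AC6 passed the filter only through the ATRA groups, this rank is partly set by the filter. Its divergent neighbour H2BC4, an H2B gene picked after its values were seen, did not pass the mark and held 2.77 FPKM in shTFEB ATRA, 1.74 in shScr ATRA, 3.20 in the group labelled shTFEB vehicle and 1.99 in shScr vehicle.

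H2BC5 is represented by a pair of models that share their start, at chr6:26158349, and end at 26158835 (short model, 487 bases) and 26171576 (long model, 13228 bases with introns). The short one is the model with the stem-loop near its end. The paired transcripts of both models carry AATAAA, which begins 27 bases before the end in the short and 25 bases in the long one. The models are thus not told apart by that hexamer, and which 3′ ends were tailed was not tested. Since the models overlap, their split is an estimate of the deposited processing. Summed over both, H2BC5 stood at 10.7 FPKM in shTFEB ATRA, 5.92 in shScr ATRA, 1.34 in the group labelled shTFEB vehicle and 1.41 in shScr vehicle. It rose in both lines, with log2 ratios of 2.32 in shTFEB cells (7.99-fold) and 1.52 in shScr cells (4.20-fold). The long model held 7.31 FPKM in shTFEB ATRA, 3.97 in shScr ATRA, 0.562 in the group labelled shTFEB vehicle and 0.319 in shScr vehicle. The short model held 3.37, 1.95, 0.775 and 1.09 FPKM in the same groups. The long, spliced form was thus the larger one under ATRA, with 68.4% of the H2BC5 level in shTFEB and 67.0% in shScr cells, and the smaller one under vehicle, with 42.0% in shTFEB and 22.6% in shScr cells. The bounds of the long model are apart between ATRA and vehicle in each line (6.39 to 8.25 against 0.342 to 0.791 in shTFEB cells, and 3.34 to 4.61 against 0.127 to 0.506 in shScr cells). Those of the short model are apart in shTFEB cells (2.34 to 4.44 against 0.387 to 1.20) and overlap in shScr cells (1.21 to 2.73 against 0.636 to 1.59). Between the models, the bounds overlap in the group labelled shTFEB vehicle (0.342 to 0.791 long, 0.387 to 1.20 short), so their order there is not resolved. In the other groups the bounds of the models are apart.

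**Figure D2:**
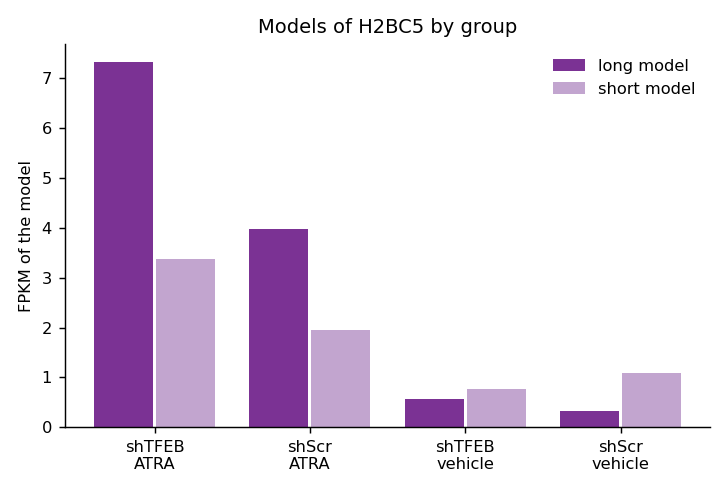
FPKM of the long, spliced model (dark) and the short model (light) of H2BC5 in the 4 groups. The long model exceeds the short one in both ATRA groups (7.31 against 3.37 and 3.97 against 1.95 FPKM) and is below it in both vehicle groups. In the group labelled shTFEB vehicle the bounds of the models overlap.

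H2BC21 (chr1:149856010-149858232) encodes H2B from the smaller histone cluster of chromosome 1 and runs on after its stem-loop. It stood at 2.82 FPKM in shTFEB ATRA, 2.63 in shScr ATRA, 0.289 in the group labelled shTFEB vehicle and 0.279 in shScr vehicle. Within each treatment the bounds of the lines overlap, and between treatments they are apart in each line. H2BC21 rose in both lines, with log2 ratios of 1.57 in shTFEB cells and 1.51 in shScr cells. Its plain ratios, 9.75-fold and 9.42-fold, were the largest of the 5 replication-dependent genes in each line; the added 1 FPKM makes the log2 ratio of such a low gene smaller.

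H1-2 (chr6:26055968-26056699), the linker histone H1.2, followed another course. It stood at 3.10 FPKM in shTFEB ATRA, 1.18 in shScr ATRA, 1.18 in the group labelled shTFEB vehicle and 1.29 in shScr vehicle. The shTFEB ATRA group alone stands high, with bounds of 1.91 to 3.01 that are apart from those of the other groups, which lie between 0.67 and 1.42. Its log2 ratio under ATRA was 0.91 in shTFEB cells and −0.07 in shScr cells, neither of which passed the mark, and the shScr value became 0.03 after median-of-ratios and 0.01 after upper-quartile rescaling. Without the added 1 FPKM, a choice made after the values were seen, H1-2 was 2.62-fold higher under ATRA in shTFEB cells (log2 ratio 1.39) and at 0.918 times the vehicle level in shScr cells.

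Together the 5 replication-dependent genes summed to 50.8 FPKM in shTFEB ATRA, 35.7 in shScr ATRA, 16.6 in the group labelled shTFEB vehicle and 13.3 in shScr vehicle, which is 3.05-fold in shTFEB and 2.68-fold in shScr cells. The 4 replacement genes summed to 737, 642, 1036 and 1035 FPKM in the same groups, or 0.712 and 0.620 times the vehicle level, and remained far more abundant.

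**Figure D3:**
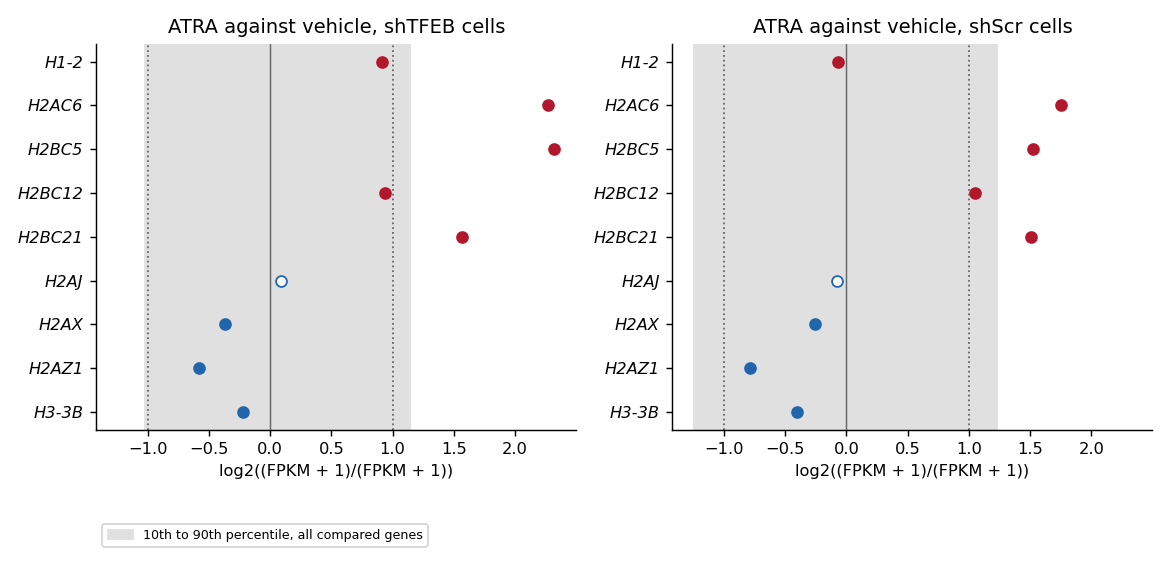
Log2 ratio of ATRA against vehicle for each gene in shTFEB (left) and shScr cells (right), after adding 1 FPKM; red points are replication-dependent and blue points replacement genes, and the open point is H2AJ, which did not pass the filter. Grey bands run from the 10th to the 90th percentile of the 11052 compared genes and dotted lines mark 2-fold; H2AC6, H2BC5 and H2BC21 lie beyond the band in both lines.

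H2AZ1 (chr4:100869244-100871512), which encodes the H2A.Z variant found at promoters, was the most abundant of the 9 genes and gave 66.9% of their summed FPKM in shTFEB ATRA, 68.5% in shScr ATRA, 74.9% in the group labelled shTFEB vehicle and 76.5% in shScr vehicle. H2AZ1 stood at 527 FPKM in shTFEB ATRA, 464 in shScr ATRA, 788 in the group labelled shTFEB vehicle and 802 in shScr vehicle. Both ATRA groups are below both vehicle groups, but the log2 ratios of −0.58 in shTFEB cells and −0.79 in shScr cells did not reach the mark. H2AZ2, which encodes a nearly identical H2A.Z, differed less: it held 157, 173, 176 and 186 FPKM in the same groups. The ratio of H2AZ1 to H2AZ2 was 3.36 in shTFEB ATRA, 2.68 in shScr ATRA, 4.48 in the group labelled shTFEB vehicle and 4.30 in shScr vehicle.

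H3-3B (chr17:73772515-73775860) is one of the genes for the replacement histone H3.3. It stood at 184 FPKM in shTFEB ATRA, 155 in shScr ATRA, 214 in the group labelled shTFEB vehicle and 205 in shScr vehicle, with log2 ratios under ATRA of −0.22 in shTFEB and −0.40 in shScr cells. Its levels are uncertain, since H3.3 genes have near-identical copies among which fragments could be split. H3-3A, the other H3.3 gene, is listed at 0 in all 4 groups, while a model over the same interval that RefSeq assigns to the pseudogene H3P6 is listed at 655, 720, 527 and 532 FPKM in the same group order. The H3P6 model has a low-data status, and its values lie below their own lower bounds in all 4 groups. They are higher under ATRA in both lines, the other way from H3-3B. The intronless copy H3-5 held 50.1, 42.6, 58.3 and 56.9 FPKM, the same order of groups as H3-3B.

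H2AX (chr11:118964585-118966177) encodes the H2A variant that is phosphorylated beside DNA breaks, and its transcript has both a stem-loop and a long extension. It stood at 25.4 FPKM in shTFEB ATRA, 23.2 in shScr ATRA, 33.2 in the group labelled shTFEB vehicle and 28.0 in shScr vehicle, with log2 ratios under ATRA of −0.37 in shTFEB and −0.26 in shScr cells. Relative to the median of all genes these are −0.24 and −0.11. H2AJ (chr12:14927270-14930936), a variant H2A gene whose product has been linked to senescent cells, was near the bottom of the scale at 0.407 FPKM in shTFEB ATRA, 0.0248 in shScr ATRA, 0.327 in the group labelled shTFEB vehicle and 0.0816 in shScr vehicle. Both groups of the TFEB hairpin line are higher than both shScr groups, with bounds that do not overlap (0.266 to 0.553 against 0.00354 to 0.0538 under ATRA, and 0.218 to 0.432 against 0.0482 to 0.123 under vehicle).

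Between the hairpin lines none of the 8 compared genes passed the 2-fold mark. Under ATRA 0 of the 8 compared genes were 2-fold higher in shTFEB than in shScr cells, against 2.67% of all genes, and 0 were 2-fold lower, against 1.58%. The 3 largest log2 ratios were those of H1-2 (0.91), H2BC5 (0.76) and H2AC6 (0.63), each with bounds apart between the lines and each larger than in at least 93.6% of all compared genes. In shTFEB against shScr cells these are 3.10 against 1.18, 10.7 against 5.92 and 8.74 against 5.28 FPKM. H2BC21 (0.07) and H2AX (0.13) had overlapping bounds. Under vehicle 0 of the 8 genes were 2-fold higher where the label says shTFEB (against 1.06% of all genes) and 0 were 2-fold lower (against 0.787%), and H2BC12 had the largest ratio, 0.40. For the difference between the ATRA responses, shTFEB minus shScr, 0 of the 8 reached 1 in either direction, against 2.42% of all genes above and 1.86% below; the values ran from −0.11 (H2BC12) through 0.80 (H2BC5) to 0.98 (H1-2).

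The other replication-dependent genes were low. Of 63 others, 10 passed the filter, with medians of 0.58 in shTFEB and 0.26 in shScr cells. In each line 3 rose (H2AC19, H4C14 and H4C15), against 11.5% of all genes in shTFEB and 12.5% in shScr cells. In each line 0 fell, against 10.5% and 15.2%. H4C14 and H4C15 were below 1 FPKM under vehicle and passed the filter only through the ATRA groups, so their count as rising is partly set by the filter. H4C14 and H4C15, which encode histone H4, are near-identical copies with the same listed values: 3.20 FPKM in shTFEB ATRA, 2.55 in shScr ATRA, 0.599 in the group labelled shTFEB vehicle and 0.669 in shScr vehicle. H2AC19, an H2A gene listed with equal values at a pair of loci, summed to 7.07, 5.40, 1.66 and 1.34 FPKM. Fragments of such copies cannot be told apart, so their separate values are uncertain. The 5 genes described here made up 53.3% of the FPKM of all 68 replication-dependent genes in shTFEB ATRA, 54.1% in shScr ATRA, 41.2% in the group labelled shTFEB vehicle and 31.8% in shScr vehicle.

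Models of these genes were also divided by the interval they span on the genome, a division made after the values were seen. The 5 models that span over 1000 bases are those of H2BC12, H2BC21, the long H2BC5 model, H3C4 and a H2BC18 model listed at 0. Of these, 4 were higher under ATRA in both lines, and they summed to 36.0 FPKM in shTFEB ATRA, 27.7 in shScr ATRA, 13.8 in the group labelled shTFEB vehicle and 10.4 in shScr vehicle. All 66 models of up to 1000 bases summed to 59.3, 38.2, 26.6 and 31.5 FPKM in the same groups. That is 2.23-fold in shTFEB and 1.21-fold in shScr cells, against 2.60-fold and 2.68-fold for the long models. The 546-base model of H2AC6, which rose in both lines, is among the 66, so span alone does not separate the rising models. The 63 models of up to 1000 bases outside the 9 genes summed to 44.1, 29.8, 23.6 and 28.2 FPKM. In shTFEB cells 40 of these 63 were higher and 16 lower under ATRA, and in shScr cells 18 were higher and 37 lower, without regard to size. Of all compared genes, 41.9% were higher and 57.6% lower in shTFEB cells, and 42.2% and 57.4% in shScr cells. Those shares are over genes that averaged 1 FPKM or more, with the models of a symbol summed. The 63 are single models and were low, with group medians between 0.175 and 0.427 FPKM. The shares are thus not a like background for them. Small differences are counted too: H2AC4, H4C4, H2AC14, H2BC7 and H4C1 count as higher in shTFEB cells at 1.29-fold. That equals the ratio of the relative depths, 1.17 in the group labelled shTFEB vehicle and 0.911 in shTFEB ATRA. H2AC13 and H2BC9 count as lower in shScr cells at 0.954 times, the inverse of the relative depth of 1.05 in shScr ATRA. Equal fragment numbers would give these ratios, so the direction counts include models that may be ties. The part of sequencing depth in these directions was not tested. Several of the short models are highest in shScr vehicle: H4C5, an H4 gene, held 0.0815 FPKM in shTFEB ATRA, 0.283 in shScr ATRA, 0.190 in the group labelled shTFEB vehicle and 1.26 in shScr vehicle, and H1-5, a linker histone gene, held 0.0722, 0.0628, 0.0747 and 0.658. These genes were named after their values were seen. Whether the TruSeq protocol named in the labels included selection for poly(A) tails is not stated, and its part in these values was not tested.

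**Figure D4:**
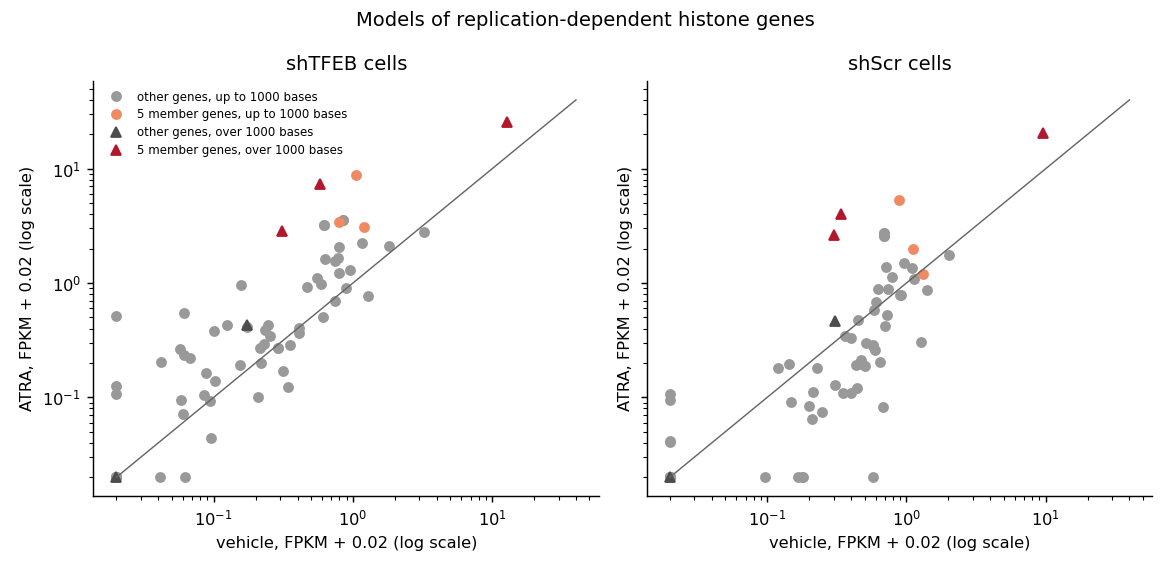
Models of replication-dependent histone genes in shTFEB (left) and shScr cells (right), with the FPKM under vehicle on the horizontal and under ATRA on the vertical axis, 0.02 added, on log scales; triangles span over 1000 bases, circles up to 1000 bases, coloured points belong to the 5 genes described, and the line marks equality. The coloured triangles lie above the line in both panels, while many grey circles lie below it in shScr cells.

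Among other replacement histone genes, 6 of 8 were compared. H1-10, a linker histone gene, rose in shScr cells (1.08) at 37.3 FPKM in shScr ATRA and 17.1 in shScr vehicle, and had 0.82 in shTFEB cells. H2AZ2, MACROH2A1, H3-5 and CENPA did not pass the mark in either line.

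Of the listed genes that make and use histone messages and histones, 0 rose under ATRA outside the cell cycle exit list. The histone messenger RNA processing list had 17 genes compared, of which 0 rose in either line, 0 fell in shTFEB and 1 fell in shScr cells, at medians of −0.36 in shTFEB and −0.59 in shScr cells. SLBP, the stem-loop binding protein, stood at 63.4 FPKM in shTFEB ATRA, against 122 in the group labelled shTFEB vehicle (log2 ratio −0.93), and fell to 50.9 in shScr ATRA, against 134 in shScr vehicle (−1.38). LSM11, a part of the U7 particle that cuts histone pre-messenger RNA, had −0.67 in shTFEB and −0.89 in shScr cells, and ERI1, an exonuclease that trims histone messages, −0.52 and −0.75. In the general polyadenylation list 0 of 14 rose; CSTF3, a cleavage stimulation factor subunit, fell in both lines (−1.23 in shTFEB, −1.53 in shScr cells) and CPSF4 in shScr cells (−1.02). Thus 1 fell in shTFEB and 2 in shScr cells, at medians of −0.48 and −0.53. Of all compared genes 10.5% fell in shTFEB and 15.2% in shScr cells, so the counts that fell in these lists are not above the share over all genes.

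Of 23 histone chaperone genes 0 rose, 3 fell in shTFEB and 5 in shScr cells, at medians of −0.40 and −0.43. SUPT16H and SSRP1, which form the FACT complex, and NASP, an H3 and H4 chaperone, fell in both lines. NASP fell to 76.9 FPKM in shTFEB ATRA, against 158 in the group labelled shTFEB vehicle, and to 58.1 in shScr ATRA, against 166 in shScr vehicle. Of the S phase genes 8 of 24 fell in shTFEB and 14 of 24 in shScr cells, with 0 higher and medians of −0.86 and −1.13. MCM4, a replicative helicase subunit, had log2 ratios of −1.30 and −1.79, GINS2, a helicase cofactor, −1.47 and −1.53, and the phosphatase gene CDC25A −1.23 and −1.60. Among 9 compared genes of cell cycle exit, CDKN2D rose in both lines (1.72 in shTFEB, 1.62 in shScr cells) and CDKN1A in shScr cells (0.30 in shTFEB, 1.88 in shScr cells), both inhibitors of cyclin-dependent kinases; 0 fell, and medians were 0.30 and −0.05. These list counts have no test, and medians of all genes were −0.13 in shTFEB and −0.15 in shScr cells. Of all compared genes 11.5% rose and 10.5% fell in shTFEB cells, and 12.5% rose and 15.2% fell in shScr cells.

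**Figure D5:**
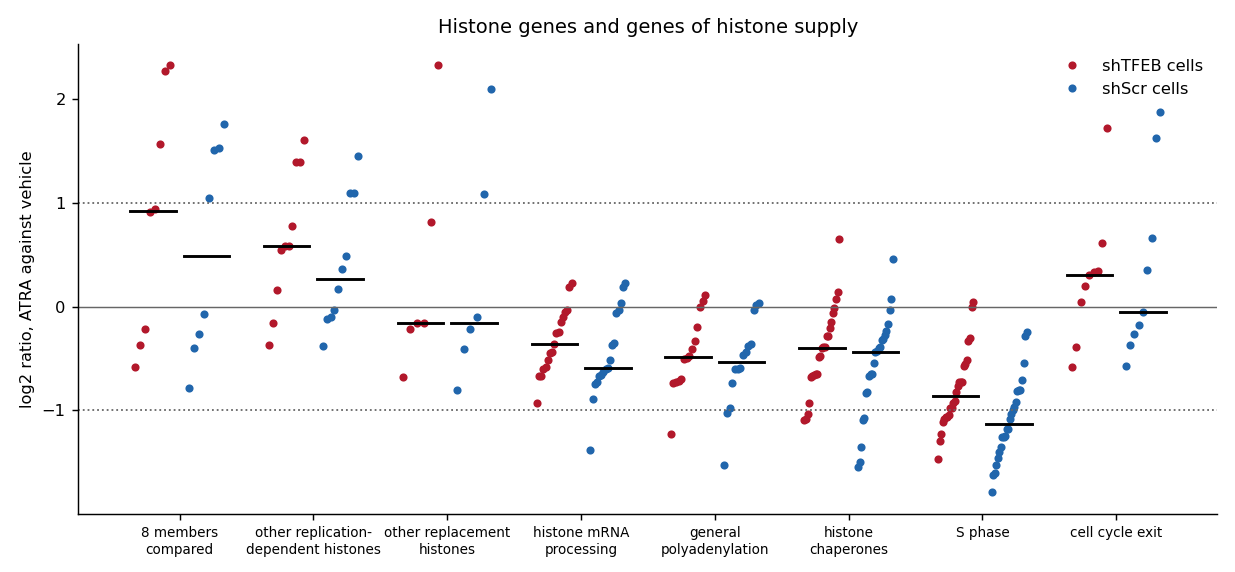
Log2 ratio of ATRA against vehicle for the compared genes of each list (points) in shTFEB (red) and shScr cells (blue), with the median as a bar and dotted lines at 2-fold. Some histone genes reach above 2-fold. Medians in shTFEB and shScr cells are 0.92 and 0.49 for the 8 genes compared and 0.58 and 0.26 for other replication-dependent genes. They are −0.16 and −0.16 for other replacement genes, and −0.86 and −1.13 for S phase genes.

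The genes whose levels over the 4 groups lay nearest to each histone gene were sought among 7781 genes with a mean of at least 5 FPKM, by the distance between log2 levels centred on their mean. With 4 values per gene, such likeness is a description. The levels had 1 FPKM added, which flattens low genes, so a near pattern need not have a like plain ratio. H2AJ, which did not pass the filter, held 0.407 FPKM in shTFEB ATRA and 0.0248 in shScr ATRA, while its nearest gene COX7A2 held 212 and 150. H2BC21, another low gene, was 9.75-fold higher under ATRA in shTFEB cells. Nearest to H2BC21 were PCMTD1 (distance 0.034), NOTCH2 (0.051) and NCKAP1L (0.058); PCMTD1 held 12.7 FPKM in shTFEB ATRA, 12.4 in shScr ATRA, 3.74 in the group labelled shTFEB vehicle and 3.62 in shScr vehicle. Among the nearest to H2AC6 were CTSS (0.11) and RAB8B (0.14), and among the nearest to H2BC5 were TRIM21 (0.16) and TDRD7 (0.16). H1-2 lay nearest to IFITM2 (0.093), SPTLC2 and MASTL; IFITM2 held 317 FPKM in shTFEB ATRA and between 166 and 181 in the other groups. H2BC12 lay nearest to SLC30A1 (0.089), UBAP1 and CTSC. Of the replacement genes, H2AZ1 lay nearest to BCKDHB (0.014), ZEB1 and TMEM70, H3-3B to BRD3 (0.016), PSMD5 and UBE2M, H2AX to ZC3H18 (0.013), HIRIP3 and C17orf58, and H2AJ to COX7A2 (0.030), NSD3 and SLC35A2.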

How the data were processed

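The FPKM and their lower and upper bounds were made by the authors with TopHat, Cufflinks and Cuffdiff on hg19, as the submitters' processing notes list them. Versions, and how the 2 samples of a group were combined, are not given in the sources used here. Of 36 values (9 genes in 4 groups), 19 lie outside their own deposited bounds, so the bounds serve only as a description.

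Gene symbols came from a RefSeq table of GRCh38.p14, used for names alone (39841 of 41159 accessions matched, 96.8%). The models of each symbol were added up, FPKM and bounds alike; coordinates are hg19, counted from 1, except for promoters. Ratios were computed in Python 3.11.15 with pandas 2.3.3 over all genes with a mean of at least 1 FPKM, and the calculation was tested on simulated data. Named genes are the 9 genes, up to 4 per list and line with the largest ATRA ratio (not all printed), histone genes past the mark, and 3 nearest patterns per gene. The members, lists and alternatives were chosen with earlier results of these data known. H2AC18 was not analysed here, and some genes that the naming rule selects are not reported here. Motifs were searched on both strands in RefSeq promoters, and matches may overlap.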

Additional observations from a re-analysis of the deposited data

Results flagged for a closer look

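H1-2 had ATRA responses of opposite sign in the lines, with log2 ratios of 0.91 in shTFEB and −0.07 in shScr cells, a difference of 0.98 that was not tested, since each group has a single value. The shScr value turned to 0.03 after median-of-ratios and to 0.01 after upper-quartile rescaling, so its sign depends on the scaling.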

How the results depend on the processing

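Of the log2 ratios of single histone genes under the alternatives, 321 kept their side of the 2-fold mark, 6 crossed it upwards, 5 crossed it downwards and 0 past the mark reversed. Below the mark 4 values near 0 changed sign under rescaling: H1-2 under ATRA in shScr cells (−0.07; 0.03 with median-of-ratios, 0.01 with upper quartile), and, with upper quartile, H2BC21 between the lines under ATRA (0.07; −0.0055) and in the difference of responses (0.06; −0.02). With 5 FPKM added, H2BC21 lost its mark in shTFEB cells (0.56), and 0 of the 8 genes were marked in shScr cells (H2AC6 0.81, H2BC5 0.77, H2BC12 0.83 and H2BC21 0.53); adding 5 FPKM compresses values that low by construction. With 0.1 FPKM added, H1-2 reached 1.32 under ATRA in shTFEB cells, 1.32 between the lines under ATRA and 1.43 for the difference of responses, so that 1 gene was marked higher in each of the last comparisons; without any addition 1 gene, H1-2, was higher between the lines under ATRA. A minimum mean of 5 FPKM removed H1-2, H2AC6, H2BC5 and H2BC21, which left 0 marked genes in shTFEB and 1 in shScr cells.

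Counts over all genes moved by over 1.5 times as follows. With 5 FPKM added, 795 rose and 582 fell under ATRA in shTFEB cells, and 873 rose and 949 fell in shScr cells; 70 were higher and 48 lower in shTFEB than in shScr under vehicle, 170 higher and 101 lower under ATRA, and 126 lower in the difference of responses. A minimum mean of 5 FPKM gave 67 higher and 52 lower under vehicle, 110 lower under ATRA and 127 lower in the difference. Under vehicle, bounds that do not overlap gave 72 and 50, and adding 0.1 FPKM gave 211 higher. The cause of the shifts under the filter, the bounds and the smaller addition was not tested. Median-of-ratios rescaling shifted the median of all genes by 0.13 in shTFEB and 0.15 in shScr cells, and 1612 genes rose and 1256 fell in shScr cells, against 1384 and 1676 as deposited (56.2% and 45.2% higher). Overlap of bounds could not be applied to the difference of responses. No paired analysis was possible because the tables hold a single value per group, and for the same reason no replicate could be left out.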
